A study of Homo sapiens with 6 samples.

Results

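The enzymes that copy the genome were followed here as 1 group of genes in cultured oral cancer cells. The group was a named list of 40 human genes of the DNA replication machinery, matched by gene symbol, and 39 of them were among the 27852 symbols of the expression table. The remaining gene, UHRF1, was not analysed here. Polyadenylated RNA had been sequenced from 3 established human oral cancer cell lines, HSC3, HSC4 and SAS. Each line was grown in DMEM (Dulbecco's modified Eagle's medium, a conventional culture medium) and in HPLM (human plasma-like medium, made to resemble the composition of human plasma), both supplemented with heat-inactivated fetal bovine serum and an antibiotic-antimycotic mix. There was 1 library for each line in each medium, 6 in all. No genetic change or drug was named for any library, and nothing stated that libraries came from separate cultures, so the p-values below measure only the spread between these libraries.

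Replication begins when the origin recognition complex (ORC), CDC6 and CDT1 load rings of MCM2 to MCM7 onto DNA in G1 phase, the step called licensing. In S phase CDC45 and the GINS complex join the ring and turn it into a running helicase. Polymerase alpha with its primase then starts each strand, polymerases epsilon and delta extend it on the sliding clamp PCNA, which RFC loads, and RPA covers the single-stranded DNA. FEN1 and LIG1 finish the lagging strand. Cyclin E drives entry into S phase, and transcription factors of the E2F family are known for switching on many of these genes at that time.

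The table gave length-corrected counts per transcript, summed here to 1 value per gene and expressed as CPM, the counts scaled to a common library size, so that levels can be set side by side between genes as well as between libraries. Library totals lay between 17716006 and 20171713, and the 39 genes took between 0.284% and 0.398% of a library. Summed markers of squamous epithelium reached between 1476 and 4558 CPM, with KRT14 at 4.40 and 10.8 CPM in HSC4 against 1503 and 1178 CPM in HSC3. Summed markers of leukocytes, fibroblasts and endothelium lay between 2.91 and 8.38 CPM, with COL3A1 at 0 in all 6 libraries. In such bulk RNA, fewer cells in S phase and less of a transcript in each cell cannot be told apart.

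Promoter sequences are shown first, because a binding site for E2F was more frequent in them than in promoters at large. RefSeq promoters (GRCh38.p14, 250 bases before to 50 after the start) were at hand for 32 of the 39 genes. Promoters for MCM4, MCM5, GINS4, CCNE2, POLD3, RPA2 and RPA3 were not matched. An E2F site was searched as TTTCCCGC, TTTCGCGC, TTTGCCGC or TTTGGCGC on both strands, and 16 of 32 replication promoters (50%) held one, against 3.99% of the promoters of all 27305 symbols and 6.54% of the promoters of tested genes. Of the 22 matches in those 16 promoters, 14 in 13 genes lay within 60 bases of the start. The CCAAT box (CCAAT on either strand), a common promoter element, was in 19 of 32 (59.4%). It was in 39.7% of all promoters and 43.3% of those of tested genes. The CHR element (TTTGAA or TTCGAA on either strand), known from genes of G2 and mitosis, was in 1 of 32. It was in 19.5% of all promoters and 15.7% of those of tested genes. A match is a run of letters and does not show that a factor was bound there.

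The 9 windows of 30 bases below, each around 1 E2F match of a gene whose values are described further on, are given 5′ to 3′ on the strand that carries the match, with the match in capitals.
CDT1, chr16:88803743-88803772, minus strand: ttcccgccaaaTTTCCCGCgggcgccctgg
GINS1, chr20:25407667-25407696, minus strand: ccgctccgcgcTTTGGCGCcgaacaaagct
GINS2, chr16:85688967-85688996, plus strand: gcggccgccgtTTTCCCGCcacggcgagag
MCM3, chr6:52284728-52284757, minus strand: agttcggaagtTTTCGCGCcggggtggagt
MCM6, chr2:135876511-135876540, plus strand: ggagctggagaTTTCGCGCcaaacctgacc
MCM7, chr7:100101388-100101417, minus strand: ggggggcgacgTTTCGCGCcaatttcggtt
PCNA, chr20:5126663-5126692, plus strand: aacgcacgcctTTTCCCGCccctgacgctg
POLE2, chr14:49688201-49688230, plus strand: catatttgcgaTTTGGCGCcaccgccgcag
RFC3, chr13:33818083-33818112, minus strand: cagagacaagtTTTCCCGCgagctccaaat
CDT1, GINS2, PCNA and RFC3 shared the same 8 letters, MCM3, MCM6 and MCM7 shared another form, and so did GINS1 and POLE2. For PCNA the window belongs to a RefSeq start other than the one nearest its leading transcript.

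MCM6 carried more E2F matches than any other of the 32 promoters, 4 in all. They form 2 overlapping pairs, each readable on both strands, and 2 CCAAT boxes stand beside them. Counted by place the E2F matches of MCM6 are 2, as many as the 2 separate ones in MCM3 and in MCM7. These 170 bases upstream of the gene, on chr2:135876444-135876613 (minus strand, as the gene is read), show the matches and the CCAAT boxes in capitals.
MCM6: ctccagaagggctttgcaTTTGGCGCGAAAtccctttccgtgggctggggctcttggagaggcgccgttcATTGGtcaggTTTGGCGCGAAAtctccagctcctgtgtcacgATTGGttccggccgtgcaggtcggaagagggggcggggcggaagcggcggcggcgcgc

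Levels per transcript length ran over a wide range. PCNA was the most abundant replication transcript in HSC3 and HSC4, reaching 664 CPM in HSC4 in DMEM, and POLD2 was the most abundant in SAS, reaching 437 CPM in HPLM. PRIM2, the large primase subunit, was the least abundant in 5 of 6 libraries, between 2.15 and 10.3 CPM, a sum without its principal annotated transcript. All 39 genes passed the filter on low counts. The replication genes summed to 3140 CPM in DMEM and 2933 CPM in HPLM for HSC3, to 3651 and 3509 CPM for HSC4, and to 3218 and 3142 CPM for SAS. The sum was lower in HPLM in each line, and HSC4 was above HSC3 and SAS in both media. A few abundant genes weigh heavily in these sums. PCNA alone was at 664 and 601 CPM for HSC4 and at 255 and 217 CPM for SAS (DMEM, then HPLM). MCM4, mostly from transcripts annotated as not protein coding, was at 372 and 331 CPM for SAS. The sums are therefore not a level shared by the genes of the group.

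**Figure D1:**
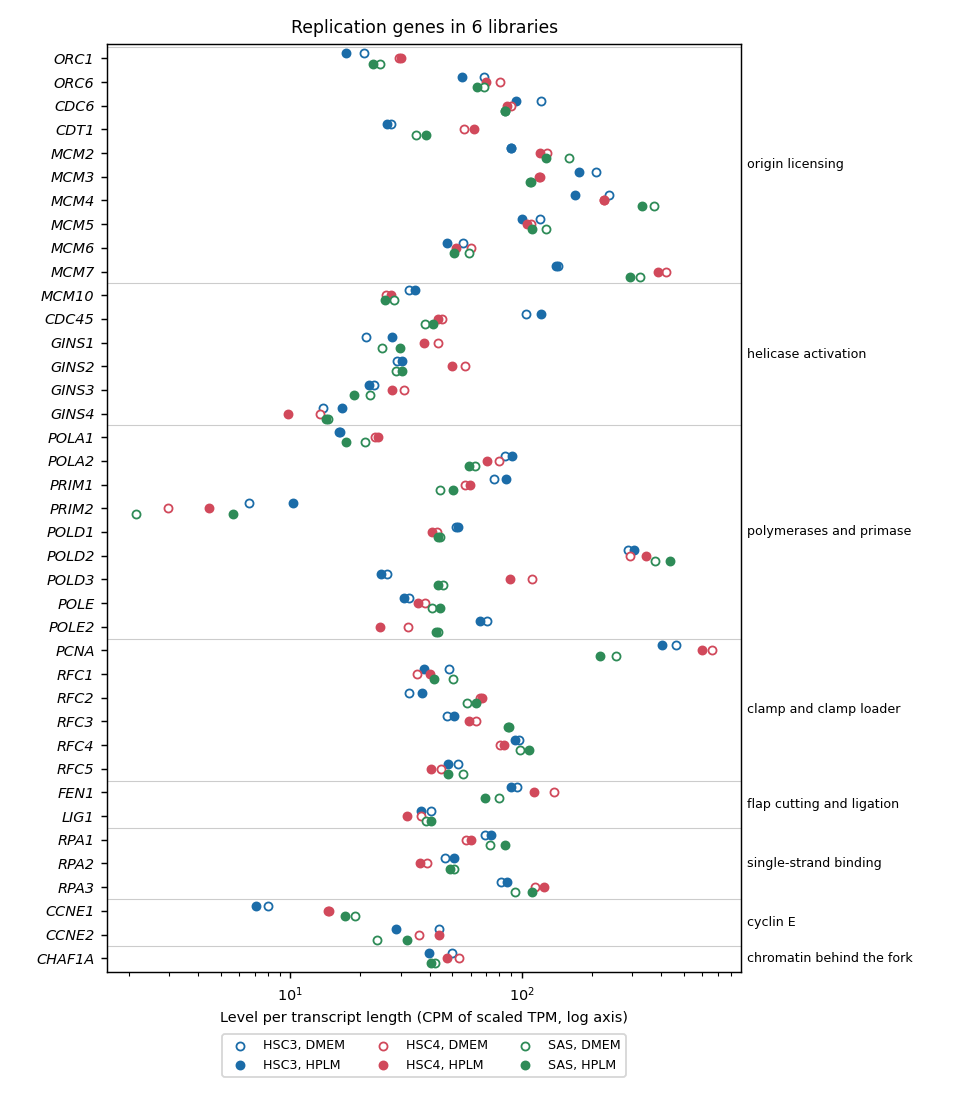
Level of each of 39 replication genes in each library, as CPM of length-corrected counts on a log axis, grouped by role; open circles are DMEM, filled circles HPLM, and colours are the 3 lines (1 library per point). For most genes the colours stand farther apart than the open and filled circle of 1 line; PRIM2 sits lowest and PCNA or POLD2 highest.

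No replication gene passed the test between media. With edgeR's quasi-likelihood test, 0 of 39 had an adjusted p under 0.05 for HPLM against DMEM, where 1 of all 13236 genes tested (0.00756%) was called, higher in HPLM. At an unadjusted p under 0.05, PRIM2 was higher and MCM6 lower, 1 gene each way of 39, against 5.57% of all genes higher and 4.55% lower. DESeq2 and limma-voom also called 0 of 39, while over all genes they called 127 and 9; without HSC3 edgeR called 4 over all genes. The log2 fold change was below 0 for 27 genes and above 0 for 12, with a median of -0.08, against a median of 0.000 over all genes, 49.9% of which were below 0. HPLM lay below DMEM in all 3 lines for 13 of 39 genes (33.3%), where this held for 17.2% of all genes, and above DMEM in all 3 lines for 6 of 39 (15.4%), where it held for 16.9% of all genes. Within each single line 24 of 39 ratios lay below 0, against 49.5% of all genes for HSC3, 49.7% for HSC4 and 50.7% for SAS. The median of these log2 ratios was -0.063 for HSC3, -0.071 for HSC4 and -0.035 for SAS. Of the 10 licensing factors 9 lay below 0, with a median of -0.138. The medians were -0.003 for helicase activation, -0.019 for polymerases and primase, -0.075 for the clamp and its loader, -0.141 for FEN1 and LIG1, 0.131 for RPA, -0.03 for the cyclins E and -0.185 for CHAF1A alone. Helicase activation went different ways by line, with a median log2 ratio of 0.147 for HSC3, -0.173 for HSC4 and 0.029 for SAS, which was not tested. When only protein-coding transcripts were counted, the median of all 39 genes was -0.034, and 24 genes lay below 0. With all transcripts, 23 lay below 0 when HSC4 was left out and 27 when HSC3 or SAS was. Without scaling factors 30 did, where the median of all genes was -0.049.

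**Figure D2:**
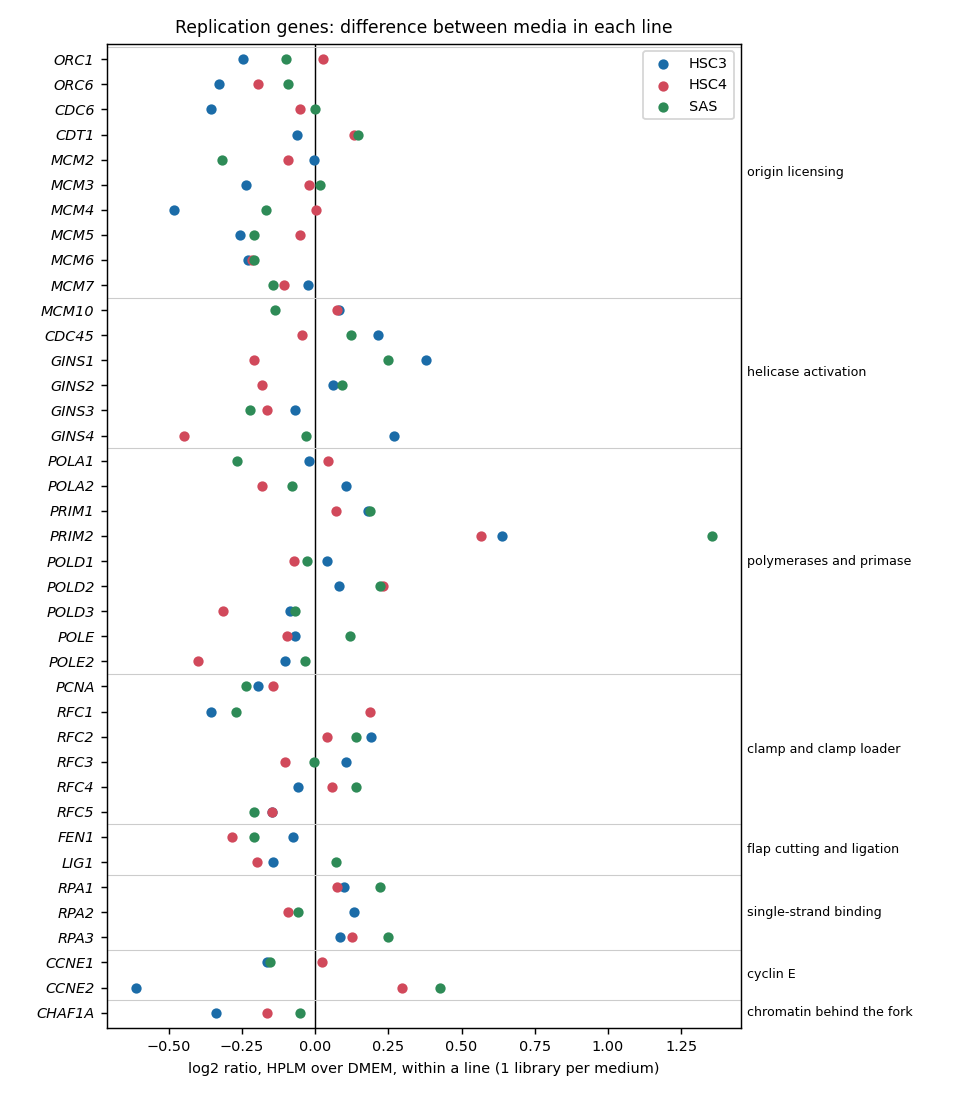
Log2 ratio of HPLM over DMEM within each line for 39 replication genes, by role (prior count of 2, 1 library per medium, so no error bars). Most points lie within 0.50 of 0; MCM6, PCNA and RFC5 lie left of 0 in all 3 lines, PRIM2 lies right of 0 in all 3, and CCNE2 is left of 0 in HSC3 and right of it in HSC4 and SAS.

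The lines differed in many replication genes. In the same edgeR fit, HSC4 was higher than HSC3 in 13 of 39 genes and lower in 5, where 18.8% of all genes were called higher and 18.6% lower. SAS was higher than HSC3 in 10 and lower in 7, where 18.8% of all genes were called higher and 20.6% lower. SAS was higher than HSC4 in 6 and lower in 8, where 20% of all genes were called higher and 21.3% lower. In total 46.2%, 43.6% and 35.9% of the replication genes were called, against 37.4%, 39.4% and 41.3% of all genes, so these shares were near those of the table as a whole. On protein-coding transcripts alone, the 18 calls for HSC4 against HSC3 became 23, 15 higher and 8 lower. The 17 for SAS against HSC3 became 14, and the 14 for SAS against HSC4 became 15. Over all genes these calls went from 4952, 5213 and 5462 to 4817, 4986 and 5310. The 3 contrasts share libraries and are not independent of each other. For 27 of 39 genes the 3 lines stood in the same order in both media (69.2%, against 56.5% of all genes). HSC4 was the highest line in both media for 15 genes and HSC3 the lowest in both for 14 (all genes 24.96% and 22.6%).

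These counts depend on having 2 libraries per line, and in each fit below that leaves out a library the calls over all genes fell as well. For HSC4 against HSC3 the 18 calls became 10 without HSC3 in DMEM, 11 without HSC3 in HPLM, 10 without HSC4 in DMEM and 10 without HSC4 in HPLM. For SAS against HSC3 the 17 calls became 10 without SAS in DMEM. For SAS against HSC4 the 14 calls became 6 without HSC4 in DMEM or in HPLM, and 5 without SAS in DMEM or in HPLM. Without scaling factors the split for SAS against HSC4 was 2 higher and 13 lower, a setting that also moved the median of all genes to -0.155.

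**Figure D3:**
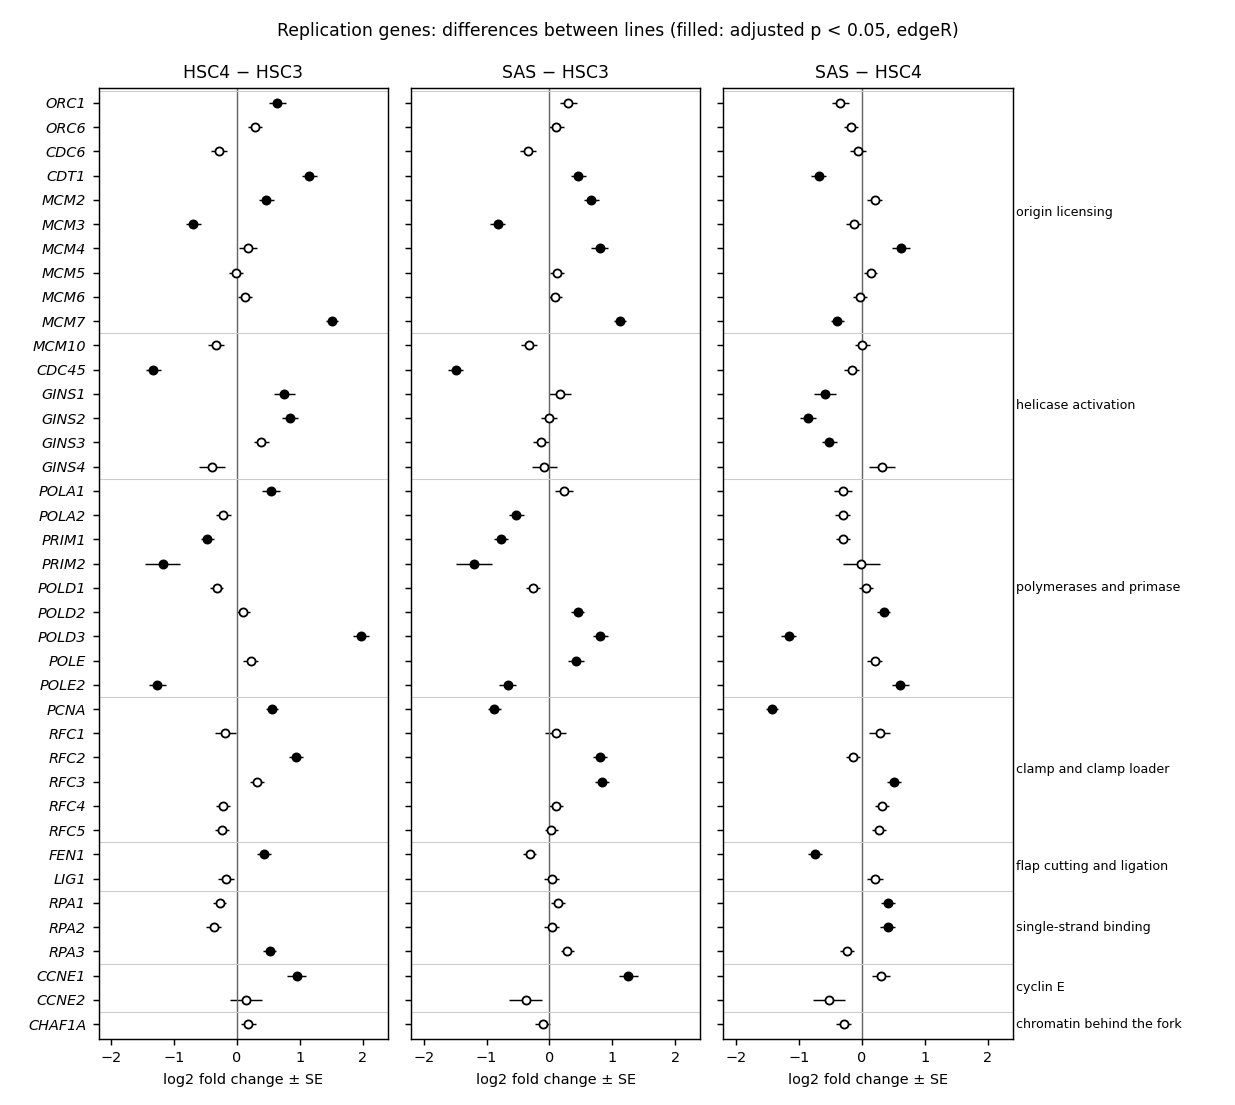
Log2 fold change ± SE between lines for 39 replication genes in 3 contrasts (edgeR, both media in 1 fit, 2 libraries per line); filled points have an adjusted p under 0.05. POLD3 and MCM7 lie farthest right in HSC4 against HSC3, CDC45 farthest left against HSC3 in both contrasts, and PCNA farthest left in SAS against HSC4.

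Licensing factors came to 1092 CPM in DMEM and 917 CPM in HPLM for HSC3, 1317 and 1258 CPM for HSC4, and 1360 and 1231 CPM for SAS. MCM6, a core subunit of the helicase ring, measured 55.7 and 47.4 CPM for HSC3, 60.3 and 51.9 CPM for HSC4, and 58.9 and 50.9 CPM for SAS (DMEM first, then HPLM, here and below). Its 3 HPLM values all lay below its 3 DMEM values, and it was called in no line contrast. The log2 fold change for HPLM against DMEM was -0.22 ± 0.087 (SE), with an adjusted p of 0.486 and an unadjusted p of 0.0455. MCM5, another ring subunit, measured 119 and 99.8 CPM for HSC3, 109 and 106 CPM for HSC4, and 128 and 110.2 CPM for SAS. It too was lower in HPLM in each line, although the groups overlapped, with a log2 fold change of -0.17 ± 0.089 (adjusted p = 0.571). All 6 ring subunits had fold changes below 0, from -0.219 to -0.081, and 4 of them were lower in HPLM in each of the 3 lines.

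MCM7 was the ring subunit that differed most between lines. It measured 143 and 140.2 CPM for HSC3, 417 and 388 CPM for HSC4, and 323 and 293 CPM for SAS. Both HSC4 and both SAS libraries stood above both HSC3 libraries. HSC4 exceeded HSC3 by 1.51 ± 0.10 on the log2 scale (adjusted p = 0.000707), which is 2.85-fold, and SAS exceeded HSC3 by 1.12 ± 0.10 (adjusted p = 0.00110). On the protein-coding transcripts of MCM7 alone, HSC4 against HSC3 was 1.47. MCM3 ran the other way, at 209 and 177 CPM for HSC3, 119.6 and 118 CPM for HSC4, and 108 and 109 CPM for SAS. Its HSC3 libraries were above all others, and SAS was lower than HSC3 with a log2 fold change of -0.83 ± 0.11 (adjusted p = 0.00350). MCM2, one of the ring subunits that the kinase CDC7 is known to phosphorylate, measured 90.04 and 89.8 CPM for HSC3, 128 and 120.1 CPM for HSC4, and 159 and 128 CPM for SAS. It was lowest in HSC3 and was called higher in HSC4 and in SAS, by 0.46 and 0.66 (adjusted p = 0.0285 and 0.00827).

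MCM4 had a summed level of 237 and 170 CPM for HSC3, 227 and 227 CPM for HSC4, and 372 and 331 CPM for SAS. SAS was the highest line in both media and HPLM was lower in HSC3 and SAS but not in HSC4. The log2 fold change for HPLM was -0.22 ± 0.11 (adjusted p = 0.574), and SAS exceeded HSC4 by 0.63 ± 0.14 (adjusted p = 0.0159). Without HSC3 the medium value was -0.08, without HSC4 -0.33, and on protein-coding transcripts alone -0.38 (adjusted p = 0.831). Between 94.9% and 98.5% of the sum of the transcripts analysed came from ones annotated as not protein coding. GENCODE 29 lists 9 protein-coding transcripts of MCM4, of which 3 were in the table used here and the others were not analysed here, and the part of this in the MCM4 values was not tested. Those 3 protein-coding transcripts of MCM4 came to 12.1 and 2.59 CPM for HSC3, 8.38 and 10.3 CPM for HSC4, and 8.25 and 11.3 CPM for SAS, and on those alone SAS against HSC4 was 0.07 (adjusted p = 0.93). With all transcripts that adjusted p was 0.121 without HSC4 in DMEM, 0.0728 without SAS in DMEM and 0.0865 without SAS in HPLM.

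CDT1, which brings the ring to ORC, measured 27.2 and 26.01 CPM for HSC3, 56.4 and 61.8 CPM for HSC4, and 34.8 and 38.6 CPM for SAS. Both HSC4 libraries were the highest and both HSC3 libraries the lowest. HSC4 exceeded HSC3 by 1.15 ± 0.12 (adjusted p = 0.00189), or 2.22-fold, and SAS was lower than HSC4 with a log2 fold change of -0.69 ± 0.12 (adjusted p = 0.00681, 0.0519 without HSC4 in HPLM and 0.0549 without SAS in DMEM). CDT1 was the 1 licensing factor with a medium fold change above 0, 0.075 ± 0.097 (adjusted p = 0.836). CDC6, the ATPase that works with ORC, measured 121 and 94.7 CPM for HSC3, 89.5 and 86.4 CPM for HSC4, and 84.7 and 84.6 CPM for SAS. The HSC3 library in DMEM stood above the other 5, which lay close together, and CDC6 was called in no line contrast.

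ORC1, the largest ORC subunit, measured 20.7 and 17.4 CPM for HSC3, 29.4 and 29.9 CPM for HSC4, and 24.3 and 22.7 CPM for SAS. HSC4 was the highest line and exceeded HSC3 by 0.64 ± 0.13 (adjusted p = 0.0134). ORC6, the smallest subunit, measured 68.8 and 54.8 CPM for HSC3, 80.3 and 70.1 CPM for HSC4, and 68.5 and 64.2 CPM for SAS. It was lower in HPLM in each line, with a log2 fold change of -0.21 ± 0.093 (adjusted p = 0.536). That direction belonged to the sum of all ORC6 transcripts. The protein-coding ones came to 11.4 and 13.4 CPM for HSC3, 18.3 and 20.5 CPM for HSC4, and 36.2 and 34.6 CPM for SAS, with a log2 fold change of 0.11 for HPLM (adjusted p = 0.757).

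Among the factors that activate the helicase, CDC45 stood apart by line. It measured 104 and 121 CPM for HSC3, 44.96 and 43.6 CPM for HSC4, and 38.1 and 41.5 CPM for SAS. Both HSC3 libraries stood far above the other 4. HSC4 was 2.53-fold lower than HSC3, a log2 fold change of -1.34 ± 0.12 (adjusted p = 0.00128), and SAS was 2.82-fold lower, -1.49 ± 0.12 (adjusted p = 0.000814). Between media CDC45 had a log2 fold change of 0.10 ± 0.096 (adjusted p = 0.771), with a ratio below 0 in HSC4 and above 0 in HSC3 and SAS.

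The 4 GINS subunits bind CDC45 and the MCM ring in 1 complex, and their line pattern was not that of CDC45. GINS2 measured 29 and 30.3 CPM for HSC3, 56.6 and 49.9 CPM for HSC4, and 28.5 and 30.4 CPM for SAS. HSC4 was highest, above HSC3 by 0.85 (adjusted p = 0.00480), and SAS was below HSC4 with a log2 fold change of -0.85 ± 0.13 (adjusted p = 0.00430). GINS1 measured 21.2 and 27.5 CPM for HSC3, 43.6 and 37.7 CPM for HSC4, and 24.9 and 29.7 CPM for SAS. HSC4 was again highest, and HPLM was higher than DMEM in HSC3 and SAS but lower in HSC4. SAS against HSC4 was -0.59 ± 0.17 for GINS1 (adjusted p = 0.0367), a call lost without HSC4 in DMEM (-0.34, adjusted p = 0.21), without SAS in DMEM (-0.5, adjusted p = 0.187), without SAS in HPLM (-0.65, adjusted p = 0.0973) and with no filter on low counts (adjusted p = 0.0574).

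GINS3 was called in 1 contrast, SAS against HSC4, with a log2 fold change of -0.52 ± 0.12 (adjusted p = 0.0192). GINS4, the least abundant subunit, measured 13.8 and 16.7 CPM for HSC3, 13.4 and 9.78 CPM for HSC4, and 14.6 and 14.3 CPM for SAS and was called in no contrast. MCM10, which helps start unwinding, stayed between 25.5 and 34.4 CPM and was called in no contrast. Medium fold changes of these 6 genes ran from -0.153 to 0.135, 3 on either side of 0.

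PRIM2 had the largest medium fold change of the replication genes and, on the transcripts analysed, the lowest mean level. It measured 6.60 and 10.3 CPM for HSC3, 2.96 and 4.43 CPM for HSC4, and 2.15 and 5.68 CPM for SAS. HPLM was higher in each line, by 0.64 (HSC3), 0.56 (HSC4) and 1.36 (SAS) on the log2 scale, although the groups overlapped across lines. The log2 fold change was 0.86 ± 0.24 with an unadjusted p of 0.0110 and an adjusted p of 0.389, and on protein-coding transcripts alone it was 1.43 (adjusted p = 0.351). PRIM2 was lower in HSC4 and SAS than in HSC3, with log2 fold changes of -1.19 ± 0.29 (adjusted p = 0.0222) and -1.19 ± 0.29 (adjusted p = 0.0209). The first call was lost without any 1 of the HSC3 and HSC4 libraries (adjusted p = 0.115 without HSC3 in DMEM, 0.0694 without HSC3 in HPLM, 0.0726 without HSC4 in DMEM, 0.14 without HSC4 in HPLM). The second was lost without HSC3 in DMEM (0.0981), HSC3 in HPLM (0.0718) or SAS in DMEM (0.113).

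PRIM1, the catalytic primase subunit, was higher in HPLM in each line, at 75.7 and 85.7 CPM for HSC3, 56.6 and 59.4 CPM for HSC4, and 44.3 and 50.4 CPM for SAS. Its medium fold change was 0.15 ± 0.088 (adjusted p = 0.622). HSC3 was the highest line in both media, and PRIM1 was lower in HSC4 with a log2 fold change of -0.47 (adjusted p = 0.0185) and in SAS with one of -0.77 (adjusted p = 0.00367). POLA2, the accessory subunit of polymerase alpha, measured 84.5 and 90.9 CPM for HSC3, 79.98 and 70.6 CPM for HSC4, and 62.6 and 59.3 CPM for SAS. POLA2 had the same line order, and SAS was lower than HSC3 with a log2 fold change of -0.53 (adjusted p = 0.0170). That order belonged to the sum of all POLA2 transcripts. The protein-coding ones came to 50.1 and 54.5 CPM for HSC3, 50.5 and 42.2 CPM for HSC4, and 38.2 and 41.0 CPM for SAS. POLA1, the catalytic subunit of polymerase alpha, was higher in HSC4 than in HSC3, by 0.53 (adjusted p = 0.0309).

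POLD3, an accessory subunit of polymerase delta, had the largest difference between lines of the 39 genes. It measured 26.1 and 24.6 CPM for HSC3, 110.4 and 88.7 CPM for HSC4, and 45.4 and 43.3 CPM for SAS. The HSC4 libraries were the highest, those of SAS intermediate and those of HSC3 the lowest, with no overlap. HSC4 exceeded HSC3 3.91-fold, a log2 fold change of 1.97 ± 0.12 (adjusted p = 0.000636), SAS exceeded HSC3 by 0.81 ± 0.12 (adjusted p = 0.00461), and SAS was lower than HSC4 with a log2 fold change of -1.16 ± 0.12 (adjusted p = 0.00155). The other subunits of this polymerase did not follow that order. POLD2 measured 287 and 304 CPM for HSC3, 293 and 343 CPM for HSC4, and 374 and 437 CPM for SAS, and SAS was above HSC3 by 0.45 (adjusted p = 0.0174) and above HSC4 by 0.35 (adjusted p = 0.0372). POLD2 was higher in HPLM in each line, with a log2 fold change of 0.18 ± 0.083 (adjusted p = 0.543). POLD1, the catalytic subunit, measured 51.7 and 53.2 CPM for HSC3, 42.8 and 40.8 CPM for HSC4, and 44.2 and 43.3 CPM for SAS and was called in no contrast.

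POLE2, the accessory subunit of polymerase epsilon, measured 70.6 and 65.8 CPM for HSC3, 32.3 and 24.5 CPM for HSC4, and 43.5 and 42.5 CPM for SAS. HSC3 was the highest line and HSC4 the lowest. HSC4 was 2.41-fold lower than HSC3, a log2 fold change of -1.27 ± 0.14 (adjusted p = 0.00193), and SAS exceeded HSC4 by 0.61 ± 0.14 (adjusted p = 0.0157, 0.1 without HSC4 in HPLM and 0.0906 without SAS in HPLM). POLE, the catalytic subunit, measured 32.6 and 31.04 CPM for HSC3, 38.2 and 35.7 CPM for HSC4, and 40.8 and 44.4 CPM for SAS, lowest in HSC3, and SAS exceeded HSC3 by 0.42 (adjusted p = 0.0359).

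PCNA, the ring that holds the polymerases on DNA, measured 462 and 403 CPM for HSC3, 664 and 601 CPM for HSC4, and 255 and 217 CPM for SAS. The 3 lines were fully separated, with HSC4 highest and SAS lowest, and HPLM was lower in each line. SAS was 2.69-fold lower than HSC4, a log2 fold change of -1.43 ± 0.100 (adjusted p = 0.000601), and lower than HSC3 with a log2 fold change of -0.88 ± 0.099 (adjusted p = 0.00197). Between media its log2 fold change was -0.19 ± 0.080 (adjusted p = 0.501, unadjusted p = 0.0534). FEN1, the nuclease that cuts the flaps of Okazaki fragments and binds PCNA, had the same line order, at 94.9 and 90.1 CPM for HSC3, 137 and 113 CPM for HSC4, and 79.8 and 69.1 CPM for SAS. SAS was below HSC4 with a log2 fold change of -0.74 ± 0.11 (adjusted p = 0.00434), and HPLM against DMEM was -0.19 ± 0.090 (adjusted p = 0.548). LIG1, the ligase of the lagging strand, lay between 31.8 and 40.5 CPM and was called in no contrast.

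The 5 subunits of the clamp loader RFC did not share 1 line pattern. RFC2 measured 32.4 and 37.04 CPM for HSC3, 65.6 and 67.6 CPM for HSC4, and 57.7 and 63.5 CPM for SAS, lowest in HSC3, with HSC4 above HSC3 by 0.94 ± 0.11 (adjusted p = 0.00254). RFC3 measured 47.4 and 51.04 CPM for HSC3, 63.4 and 58.96 CPM for HSC4, and 87.7 and 87.4 CPM for SAS, highest in SAS, with SAS above HSC3 by 0.83 ± 0.11 (adjusted p = 0.00329). RFC1, RFC4 and RFC5 were called in no contrast. RFC5 measured 53.03 and 47.9 CPM for HSC3, 44.9 and 40.5 CPM for HSC4, and 55.4 and 47.9 CPM for SAS, lower in HPLM in each line, with a medium fold change of -0.17 ± 0.089 (adjusted p = 0.575). RFC4, the most abundant loader subunit, measured 97.5 and 93.6 CPM for HSC3, 80.2 and 83.5 CPM for HSC4, and 97.7 and 108 CPM for SAS, and RFC1, the largest one, measured 48.4 and 37.8 CPM for HSC3, 35.1 and 39.99 CPM for HSC4, and 50.3 and 41.7 CPM for SAS.

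RPA, the cover of single-stranded DNA, was the group with a median medium fold change above 0. RPA3, its smallest subunit, measured 80.9 and 85.9 CPM for HSC3, 114 and 125 CPM for HSC4, and 92.95 and 111 CPM for SAS. It was higher in HPLM in each line, with a log2 fold change of 0.15 ± 0.087 (adjusted p = 0.601, and 0.1 without SAS), and HSC4 exceeded HSC3 by 0.52 (adjusted p = 0.0136). RPA2 measured 46.5 and 50.99 CPM for HSC3, 38.8 and 36.4 CPM for HSC4, and 50.9 and 48.9 CPM for SAS and RPA1 between 57.3 and 84.8 CPM. Both were higher in SAS than in HSC4, by 0.41 and 0.42 (adjusted p = 0.0374 and 0.0260).

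The cyclins E, which activate CDK2 at the start of S phase, differed from each other. CCNE1 measured 8.01 and 7.13 CPM for HSC3, 14.5 and 14.7 CPM for HSC4, and 19.1 and 17.1 CPM for SAS. HSC3 was the lowest line, with HSC4 above it by 0.95 ± 0.15 (adjusted p = 0.00602) and SAS by 1.26 ± 0.15 (adjusted p = 0.00238), or 2.39-fold. CCNE2 measured 43.7 and 28.6 CPM for HSC3, 35.8 and 43.9 CPM for HSC4, and 23.8 and 31.98 CPM for SAS. HPLM was lower in HSC3 and higher in the other lines, so the mean medium fold change was 0.037 ± 0.21 (adjusted p = 0.970). CHAF1A, the large subunit of the factor that places histones on new DNA, measured 49.9 and 39.5 CPM for HSC3, 53.3 and 47.6 CPM for HSC4, and 41.95 and 40.5 CPM for SAS. It was lower in HPLM in each line, with a log2 fold change of -0.19 ± 0.10 (adjusted p = 0.586, and -0.11 without HSC3), and was called in no contrast.

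Subunits that act in fixed numbers in 1 complex were not at equal RNA levels. In the MCM ring the most abundant subunit exceeded the least abundant, MCM6, by 3.74-fold to 7.46-fold, depending on the library, with a median of 6.40. The most abundant one was MCM4 for HSC3 in DMEM and for SAS in both media. The MCM4 sum came mostly from transcripts annotated as not protein coding, so these ratios too rest on an incomplete MCM4. The ratio was 1.82 to 5.11 in GINS, from GINS2 to GINS4 on average, 1.94 to 3.01 in RFC and 1.68 to 3.43 in RPA. In polymerase delta it was 6.83 to 12.4 over POLD1, POLD2 and POLD3, with POLD2 highest. In polymerase epsilon it was 1.05 to 2.17 over POLE and POLE2 alone. POLE3 (84.4 to 123 CPM) and POLE4 (95.3 to 110 CPM) stood above both in every library. They were not in that ratio, and POLD4 was not in that of polymerase delta. Polymerase alpha with primase had the widest range, 8.82 to 29.1, with PRIM2 lowest in all 6 libraries. The PRIM2 sum lacked its principal annotated transcript, and the part of this in that range was not tested. By mean level POLA2 was the highest of these subunits on all transcripts. On protein-coding transcripts PRIM1 was, and the range was 9.75 to 58.1. On the protein-coding transcripts in the table MCM4, with 3 of its 9 annotated ones, was the lowest ring subunit, and the ratio in the ring was 15.9 to 66.8, a comparison with an incomplete MCM4.

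The gene sums were made of 334 transcripts, all of them in GENCODE 29 (GRCh38). In 33 of 39 genes the same transcript led in all 6 libraries, and in 30 of 39 the leading one held over 50% of the sum on average. PCNA, MCM6, FEN1, RPA2, RFC3 and ORC1 were close to 1 transcript each, with mean shares of 98.7%, 99.3%, 96.8%, 97.7%, 96.1% and 95.2%. In MCM4, ORC6 and PRIM2 the sums rested largely on short transcripts or on ones annotated as not coding, and in LIG1 between 47.6% and 65.5% of the sum was not protein coding. The part not protein coding was also large in POLE2 (34.6% to 57.3%), POLE (41.5% to 46.3%), MCM7 (38.9% to 45.2%) and POLA2 (30.8% to 40.7%), among others. POLA2 was led by a coding transcript of 580 bases (mean share 42.2%). MCM4 was led by a 366-base transcript annotated for nonsense-mediated decay (mean share 47.9%) and by a retained-intron transcript of 354 bases. PRIM2 was divided between a 375-base coding transcript and a 410-base processed transcript, and its principal annotated transcript was not analysed here. The 375-base one held 55.2%, 39.0% and 30.5% of PRIM2 in DMEM for HSC3, HSC4 and SAS, and 68.4%, 66.5% and 56.8% in HPLM.

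In ORC6 these shares in SAS stood apart from those in HSC3 and HSC4. Its retained-intron transcript held 53.5% and 47.7% of the sum for HSC3, 40.9% and 47.0% for HSC4, and 18.2% and 18.8% for SAS. Its main coding transcript held 15.7% and 24.0% for HSC3, 21.8% and 26.3% for HSC4, and 52.1% and 52.9% for SAS. Shares of transcripts of 1 gene are estimates that divide shared reads, and no test was made on them.

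**Figure D4:**
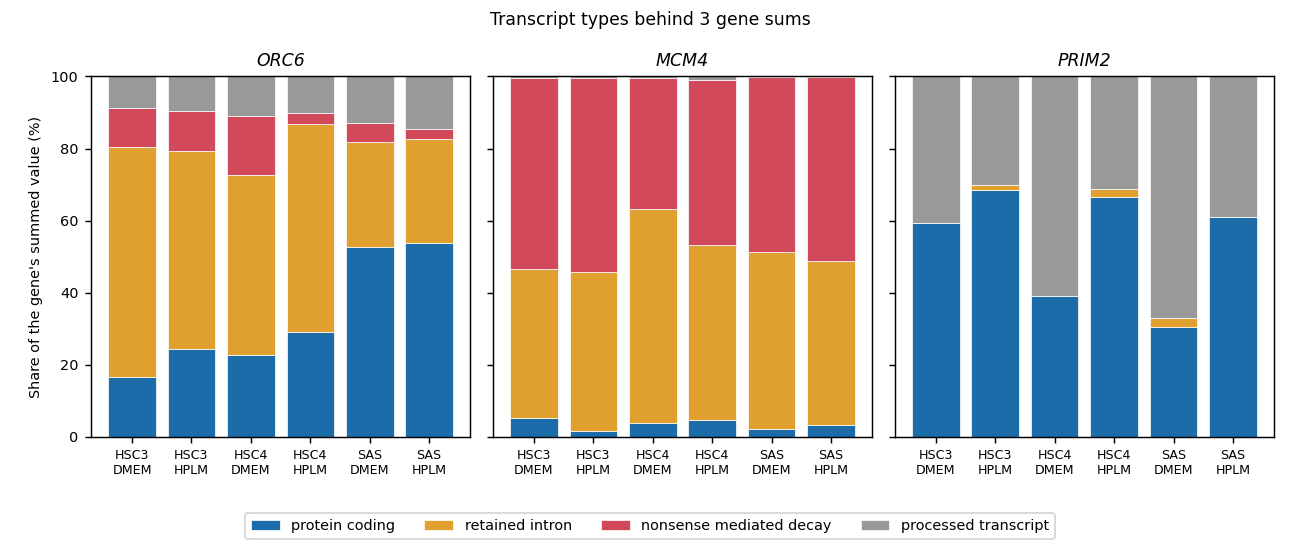
Share of the summed value of ORC6, MCM4 and PRIM2 by annotated transcript type, as percent of the gene's sum in each library (stacked bars, 1 library per bar). The protein-coding share of ORC6 is largest in both SAS libraries, that of MCM4, from 3 of its 9 annotated coding transcripts, is near 0 throughout, and that of PRIM2 is larger in HPLM than in DMEM in each line.

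Genes around the replication machinery were read from 7 lists chosen with earlier results of these data known. In HPLM against DMEM 0 genes of these lists were called by edgeR, and of all genes tested 49.9% had a log2 fold change below 0. Of 15 G1/S control genes, 7 lay below 0 and the median was 0.028. CCND1, cyclin D1 of G1 phase, was at -0.33 ± 0.086 (unadjusted p = 0.00853, adjusted p = 0.381), and MYBL2, a transcription factor of proliferating cells, at 0.34 ± 0.094 (adjusted p = 0.383). Of 6 tested inhibitors of cyclin-dependent kinases 4 lay below 0, among them CDKN2A at -0.50 ± 0.14 and CDKN2B at -0.58 ± 0.16, while CDKN1A was at 0.48 ± 0.17 (adjusted p = 0.390, 0.394 and 0.458). Of 10 genes of origin firing and licensing control 4 lay below 0, with a median of 0.028. Fork protection and checkpoint genes had 8 of 10 below 0 and a median of -0.032, with TIPIN, a partner of TIMELESS at the fork, at 0.24 ± 0.090 (adjusted p = 0.465).

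Enzymes of deoxynucleotide supply had a median medium fold change of 0.054, with 4 of 10 below 0. Within lines, 7 of 10 ratios lay below 0 in HSC4, 2 in HSC3 and 1 in SAS. Genes of the G2 and mitosis wave had 9 of 12 below 0 and a median of -0.1. The lines went different ways, with a median log2 ratio of 0.209 for HSC3 (2 of 12 below 0), -0.21 for HSC4 and -0.133 for SAS (11 of 12 below 0 in either), a difference between lines that was not tested. In that list FOXM1 was at -0.25 ± 0.093 and BUB1 at -0.23 ± 0.086 (adjusted p = 0.459 and 0.459). Other subunits and partners of the replisome had 5 of 8 below 0 and a median of -0.044, with DNMT1, which copies DNA methylation behind the fork, at -0.23 ± 0.085 and POLD4, the fourth subunit of polymerase delta, at 0.29 ± 0.11 (adjusted p = 0.458 and 0.459). At an unadjusted p under 0.05 each of these 7 lists held 0 to 3 genes, where 5.57% of all genes were higher and 4.55% lower. The 3 were among the 6 tested inhibitors of cyclin-dependent kinases, 1 higher and 2 lower. The lists of origin firing and licensing control and of deoxynucleotide supply held 0.

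Between lines, called genes of these lists are given for HSC4 against HSC3, SAS against HSC3 and SAS against HSC4 in turn, where 37.4%, 39.4% and 41.3% of all genes were called. Of 15 G1/S control genes 5, 8 and 7 were called, and of 6 inhibitors 2, 3 and 5. Of 10 genes of origin firing and licensing control 4, 7 and 5 were called, of 10 fork protection and checkpoint genes 4, 2 and 6, and of 10 deoxynucleotide supply genes 7, 5 and 6. The G2 and mitosis list had 3, 2 and 4 of 12 called, and the other replisome subunits and partners 3, 4 and 2 of 8.

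Tested genes that lie within 1 Mb of a replication gene were listed for the genes with the largest line differences, a description added after those values were seen. POLD3 lies on chromosome 11 (74493851 to 74669117, GRCh38). Of its 22 tested neighbours, 19 were called higher in HSC4 than in HSC3 and 0 lower, with a median log2 fold change of 1.64. CDC45 lies on chromosome 22 (19479459 to 19520612), and 20 of its 25 neighbours were lower in SAS than in HSC3 and 1 higher, with a median of -1.27. Of the 12 neighbours of PCNA on chromosome 20 (5114953 to 5126626), 11 were lower in SAS than in HSC4 and 0 higher, with a median of -1.28. Around MCM7 on chromosome 7 (100092728 to 100101940), 41 of 56 neighbours were higher in HSC4 than in HSC3 and 1 lower, with a median of 0.89. These shares were 86.4%, 80.0%, 91.7% and 73.2%, against 18.8%, 20.6%, 21.3% and 18.8% of all genes called in the same direction.

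Several other replication genes had shares close to these. They were 77.8% around GINS1 (SAS against HSC4) and 71.4% around MCM3 (SAS against HSC3). For HSC4 against HSC3 they were 72.2% around POLE2 and 69.2% around CDT1. In another contrast the share was lower around MCM7 (44.6%, SAS against HSC3) and CDT1 (46.2%, SAS against HSC4). CCNE1, PRIM2 and MCM4 had fewer called neighbours on their side. CCNE1 on chromosome 19 was higher in SAS than in HSC3 while 0 of its 5 neighbours were higher and 2 were lower. PRIM2 on chromosome 6 was lower in HSC4 than in HSC3 with 1 of 7 neighbours lower and 1 higher, and lower in SAS than in HSC3 with 3 of 7 lower and 0 higher (median -0.849). MCM4 had 1 of 6 neighbours called in its direction for SAS against HSC4 and 1 in the other.

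**Figure D5:**
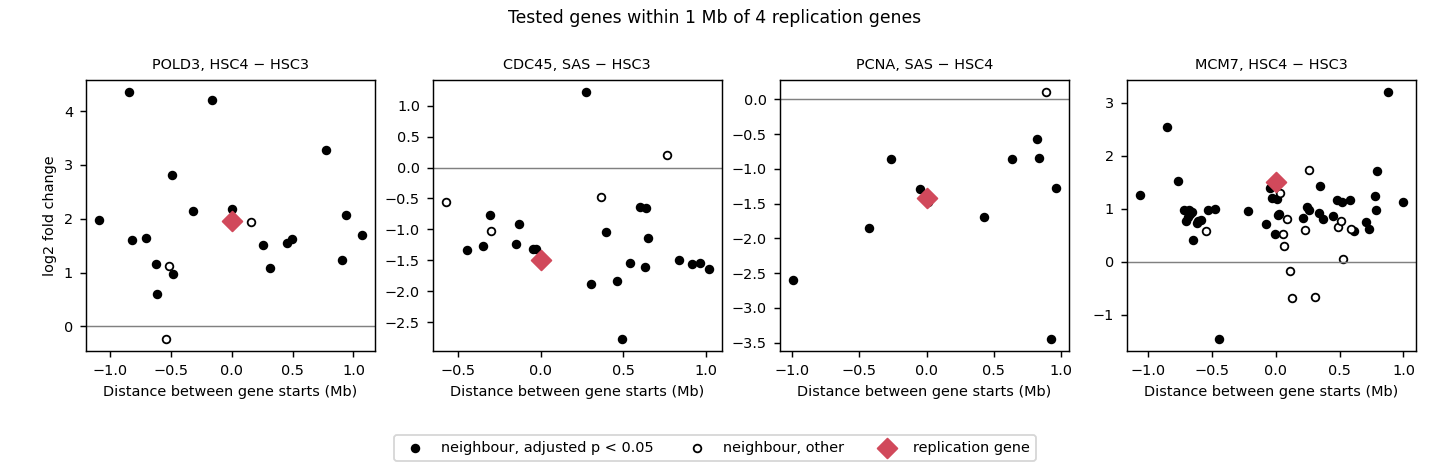
Log2 fold change of tested genes within 1 Mb of POLD3, CDC45, PCNA and MCM7, against the distance between gene starts in Mb. For each, 1 contrast is drawn of those in which it was called. These are HSC4 against HSC3 for POLD3 and MCM7, SAS against HSC3 for CDC45 and SAS against HSC4 for PCNA. Filled circles have an adjusted p under 0.05 (edgeR) and the diamond is the replication gene. Most neighbours lie on the same side of 0 as the replication gene, 19 of 22, 20 of 25, 11 of 12 and 41 of 56 with a call.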

How the data were processed

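RNA of 6 libraries was analysed, 3 lines in 2 media. Per the labels' protocols, poly(A) RNA was selected and libraries were strand-specific. Per the submitters' processing notes, FastQC and kallisto were used with hg38; versions, annotation and use of strand were not given in the sources used here, and overlapping antisense genes may share reads. The authors deposited expected counts per transcript in the form called scaled TPM: abundances scaled to library size, so a value is length-corrected and is not a number of reads, and no counting interval is given. The columns taken for DMEM name the line and no medium.

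The 161149 rows held 159837 transcripts. The 1312 repeated rows were counted once, 6878 transcripts without a symbol (0.362% to 0.479% of a library) were left out, and the rest were summed to 27852 symbols and rounded to whole numbers. R 4.3.3 with edgeR 4.0.16 was used: filterByExpr (minimum count 10, minimum total 15), TMM, quasi-likelihood test with line and medium as terms (2 residual and 4 prior degrees of freedom), and Benjamini-Hochberg over 13236 genes, called at 0.05. The SE was taken as the size of the log2 fold change divided by the root of the F statistic. Ratios within a line used a prior count of 2. CPM were divided by TMM-scaled library size. The fit was tested on simulated data first, with changes set only in genes of higher mean count. Of 2-fold changes, 88.1% were called for HPLM against DMEM and 74.6% for HSC4 against HSC3. Genes called without a set change numbered 27 of 12980 run and 16 of 13002 run. In each comparison 67, 67 and 66 genes carried a set change of 2-fold, 4-fold and 8-fold. Such false calls were thus a larger share of the calls than of the genes run.

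Libraries pair by line: deviations from the medium means correlated at 0.779 (HSC3), 0.792 (HSC4) and 0.805 (SAS), so line was a block. Alternatives used DESeq2 1.42.0, limma 3.58.1, other scaling, filters and left-out libraries. Counting only protein-coding transcripts was added after seeing the data. The genes and lists were chosen with earlier results of these data known. Named in full were the 12 genes with the smallest p between media, up to 8 called genes per line contrast with the largest change, the highest and lowest subunit of each complex, and up to 3 genes of a list by p between media; CCNE2 and the others were added so that every gene is covered. For 1 gene of these lists the values are not reported here.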

Additional observations from a re-analysis of the deposited data

Results flagged for a closer look

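CCNE2 was the 1 replication gene whose medium response pointed in opposite directions with a size of at least 0.3 on the log2 scale on both sides. HPLM over DMEM gave a log2 ratio of -0.61 for HSC3, 0.3 for HSC4 and 0.43 for SAS. The levels behind these ratios were 43.7 and 28.6 CPM for HSC3, 35.8 and 43.9 CPM for HSC4, and 23.8 and 31.98 CPM for SAS (DMEM, then HPLM). With 1 library of a line in each medium, the difference between lines was not tested.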

How the results depend on the processing

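Replication genes called between media numbered 0 under every alternative run. Over all genes that comparison called 1 gene, and 0 with upper-quartile scaling, 0 with no low-count filter, 0 with no replicate block (medium as the 1 term, lines not paired), 127 with DESeq2, 9 with limma-voom, and 0 to 4 with a line left out (4 without HSC3). The median of the replication genes between media, -0.08, was -0.13 without scaling factors (where the median of all genes was -0.049), -0.034 on protein-coding transcripts, and -0.077 to -0.055 with a line left out. With a library left out, called replication genes numbered 10 to 17 for HSC4 against HSC3 (18 with all libraries), 10 to 16 for SAS against HSC3 (17) and 5 to 15 for SAS against HSC4 (14); over all genes the first count went from 4952 to between 2445 and 4844, with 1 sample fewer in each of these fits. On protein-coding transcripts ORC6 between media turned from -0.21 to 0.11 (adjusted p = 0.757). Called replication genes on those transcripts numbered 23 for HSC4 against HSC3, 14 for SAS against HSC3 and 15 for SAS against HSC4. Without scaling factors the median of all genes moved to 0.135 for HSC4 against HSC3 and -0.155 for SAS against HSC4. Over the named genes and alternatives, 482 values kept direction and side of the threshold, 21 lost the call and 1 reversed. The 21 belonged to PRIM2, MCM4, GINS1, CDT1 and POLE2 in the contrasts given with them; PRIM2 also lost both line calls when medium was no term (adjusted p = 0.0957 and 0.112). The cause was not tested. Scaled TPM values keep no read depth per gene, which limits what can be said of PRIM2 and other low genes.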
